A study of Mus musculus with 18 samples.

Results

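The step examined here is the one from the early thymic progenitor (ETP) to the double negative 2 (DN2) thymocyte in the fetal thymus of C57BL/6 mice. Its arrays were chosen by title: the 3 fetal DN2 arrays were set against the 3 fetal ETP arrays, which makes 6 of the 18 arrays of the series, and every one of the 22626 probe sets was compared. Fetal DN2 cells were sorted as lineage-negative CD44+ CD25+ thymocytes. Fetal ETP cells were sorted as lineage-negative CD44+ CD25- cells that carried c-Kit. Surface CD3ε and CD11b were among the lineage antigens depleted. The animals were untreated and carried no engineered allele. The labels give E14.5 for the fetal mice, a day earlier than the study's methods. Each fetal array held RNA pooled from a pair of sorts and amplified over successive rounds, so that the embryos behind an array cannot be told apart. In the methods such arrays are termed technical replicates and in the labels biological ones, so p-values measure the spread between these arrays, which may be technical in part. The other 12 arrays hold fetal DN3, adult ETP, adult DN2 and adult DN3 cells, the adult ones from female mice of 4 to 6 weeks. Each adult array held RNA pooled from 4 sorts, so pooling differed between fetal and adult arrays.

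T cell precursors arrive in the thymus from the fetal liver or, in the adult, from the bone marrow, and the ETP is the earliest of them that can be sorted. ETPs still hold some potential for myeloid, dendritic and natural killer fates, and express genes of blood progenitors. Under Notch signals from the thymic epithelium they switch on CD25, the interleukin-2 receptor alpha chain, and enter the DN2 stage. There the genes of the T cell receptor complex begin to be expressed, and commitment is completed as DN2 cells become DN3 cells.

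Values are log2 expression after GC-RMA, a method that removes background with the help of each probe's base composition, and the deposited table had been shifted so that the median of each probe set over the 18 arrays is 0. A value of 2 therefore means 4-fold above the middle of the series for that probe set, and levels of different genes cannot be compared. Probe sets with the same low signal on most arrays lie near 0 there. Among the called genes, all 3 DN2 arrays of 12 falls (*Csf1r*, *Klrd1*, *Hdc*, *Itgax*, *Ermap*, *Ighm*, *Ahnak* and *Tjp1* of those named) and all 3 ETP arrays of 5 rises (*Plet1*, *Endou* and *Grap2* of those named) lay within 0.25 log2 of the lowest of the 18 arrays. The fold change of such a gene depends on how background was removed. The median of the 6 arrays lay between 8.15e-05 and 0.05. The number of arrays limits the precision.

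A probe set was called when limma, fitted to all 18 arrays with 1 mean per group, gave a Benjamini-Hochberg adjusted p under 0.05 and at least a 1.8-fold difference. Over the step, 94 probe sets were called higher in DN2 (0.415% of all) and 126 lower (0.557%), together 220 (0.972%). In each of them all DN2 arrays lay on one side of all ETP arrays. The share of all probe sets separated in this way was not computed. With 3 arrays against 3, a proportion of 0.10 of the orderings separates the groups. Here and for uncalled genes below, the separation therefore only describes the arrays. With 1 probe set for each of 12393 genes, 71 genes were higher (0.573%) and 81 lower (0.654%). These shares are the background for every count of called list members below. Among them, 24 genes were at least 8-fold higher and 28 at least 8-fold lower in DN2. The median difference of all genes was -0.02 log2, and the middle 95% of genes lay between -1.03 and 0.68 log2. DN2 and ETP arrays with the same replicate number deviated together from their group means (correlations across probe sets of 0.499, 0.547 and 0.597, against -0.625 to 0.0857 for other pairs). Deviations from a group mean sum to 0, so positive same-numbered values push the other pairs down. The low values of the other pairs are therefore no separate evidence of pairing. With the replicate number as a block in the 18-array fit, 96 probe sets were higher and 131 lower. Among the 9 fetal arrays with the same block the counts were 112 and 213 (genes 0.629% and 1.21%). Without a block those 9 arrays gave 74 and 148. Among the 6 arrays of the step, where the block leaves few degrees of freedom, limma called 0 and 0 (lowest adjusted p = 0.0549, with 2886 probe sets at an unadjusted p under 0.05).

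The 20 largest called rises included genes of the T cell receptor complex and of the receptor that defines the gate. *Il2ra*, the gene of CD25, had values of 0.95, 1.41 and 0.62 in the DN2 arrays and -2.85, -4.22 and -5.98 in the ETP arrays. It was 5.34 ± 0.77 log2 higher in DN2 (limma estimate and SE, n = 3 arrays each, adjusted p = 0.00287). The sort separated the groups on this protein, so the value checks the labels. *Cd44* and *Kit*, carried by both populations, differed by -2.03 ± 1.36 and -1.42 ± 0.66 log2 without a call (adjusted p = 0.951 for both). Their DN2 arrays nevertheless lay below their ETP arrays. With the block on the 9 fetal arrays *Kit* was called (adjusted p = 0.0376) and *Cd44* was not (0.0548).

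**Figure D1:**
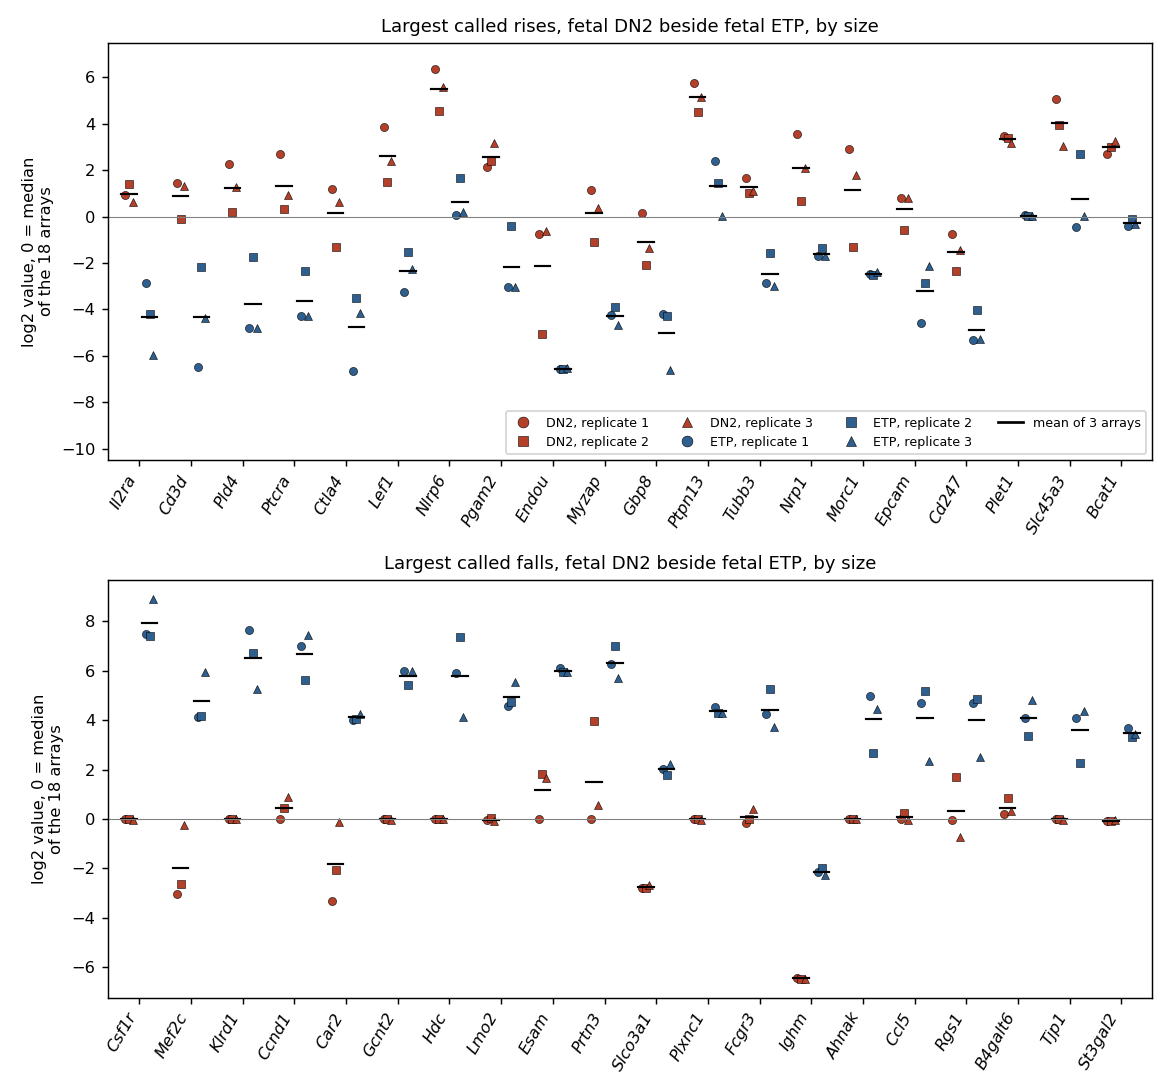
Log2 value of each fetal DN2 and fetal ETP array (0 is the median of the 18 arrays) for the 20 largest called rises (upper panel) and the 20 largest called falls (lower panel); marker shapes give the replicate number and bars the mean of 3 arrays. The DN2 and ETP arrays of each gene are separate, and for falls such as *Csf1r*, *Klrd1* and *Hdc* the DN2 arrays lie together near 0.

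The surface complex of the pre-T cell receptor includes the CD3 chains, the zeta chain CD247 and the invariant pre-T alpha chain, encoded by *Ptcra*. *Cd3d* had values of 1.46, -0.10 and 1.31 in DN2 and -6.50, -2.16 and -4.38 in ETP, a difference of 5.23 ± 0.81 log2 (adjusted p = 0.00504). *Ptcra* had 2.72, 0.34 and 0.92 in DN2 against -4.28, -2.35 and -4.30 in ETP, and was 4.97 ± 0.67 log2 higher (adjusted p = 0.00177). In both genes the DN2 array numbered 2 was the lowest of its group and the ETP array numbered 2 the highest, so the replicate 2 arrays stood closest together. The zeta chain gene *Cd247* was 3.37 ± 0.45 log2 higher (adjusted p = 0.00143), with values of -0.74, -2.33 and -1.45 in DN2 and -5.30, -4.03 and -5.29 in ETP, but only 1 of its 4 probe sets was called. *Cd3e* was 3.06 ± 0.45 log2 higher (adjusted p = 0.00333), with 1.00, -0.14 and -0.31 in DN2 against -2.99, -2.31 and -3.32 in ETP. *Cd3g* did not pass the test in this fit. Its values were 0.28, -0.11 and 0.06 in DN2 and -2.33, -1.55 and -2.10 in ETP, which do not overlap, and the difference was 2.07 ± 0.77 log2 (adjusted p = 0.568). The adult ETP arrays, which share in the estimate of spread, lay as far apart as -11.98 and -7.52 for this gene. In the 9 fetal arrays alone *Cd3g* was called (adjusted p = 0.00851), as it was there with the block (0.0228). *Cd3d* was called there neither without the block (0.0868) nor with it (0.0959). *Ptcra* and *Cd247* were called there without the block (0.0313 and 0.0257) and not with it (0.0510 and 0.0536).

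*Cd3d*, *Cd3g* and *Cd3e* lie side by side on chromosome 9, and *Cd3g* and *Cd3d* start 1355 bases apart on opposite strands. Their windows and that of *Ptcra*, from 250 bases before to 50 bases after the start (RefSeq, GRCm38.p6, 5′ to 3′ on the gene's strand), are shown because the genes encode chains of 1 receptor complex and had their DN2 arrays above their ETP arrays. Capitals mark 6 short motifs on either strand: CAGGTG (E proteins), TGGGAA (RBPJ, the partner of Notch), CTTTGA (Tcf and Lef factors), AGATAA (factors of the Gata family), TGTGGT (Runx factors) and GGAAGT (Ets factors), none of which overlapped another in these windows.
Cd3d, chr9:44981536-44981835, plus strand: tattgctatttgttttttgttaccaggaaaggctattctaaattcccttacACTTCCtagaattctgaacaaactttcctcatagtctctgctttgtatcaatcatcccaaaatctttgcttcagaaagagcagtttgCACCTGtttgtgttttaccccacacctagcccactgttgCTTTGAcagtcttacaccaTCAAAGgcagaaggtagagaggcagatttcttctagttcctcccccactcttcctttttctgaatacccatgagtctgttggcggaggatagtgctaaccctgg
Cd3g, chr9:44980382-44980681, minus strand: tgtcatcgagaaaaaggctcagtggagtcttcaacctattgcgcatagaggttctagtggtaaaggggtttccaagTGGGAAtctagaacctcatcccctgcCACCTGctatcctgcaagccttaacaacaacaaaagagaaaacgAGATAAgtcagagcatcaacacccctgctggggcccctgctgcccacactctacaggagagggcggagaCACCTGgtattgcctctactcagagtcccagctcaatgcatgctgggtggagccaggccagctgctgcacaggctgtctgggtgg
Cd3e, chr9:45009562-45009861, minus strand: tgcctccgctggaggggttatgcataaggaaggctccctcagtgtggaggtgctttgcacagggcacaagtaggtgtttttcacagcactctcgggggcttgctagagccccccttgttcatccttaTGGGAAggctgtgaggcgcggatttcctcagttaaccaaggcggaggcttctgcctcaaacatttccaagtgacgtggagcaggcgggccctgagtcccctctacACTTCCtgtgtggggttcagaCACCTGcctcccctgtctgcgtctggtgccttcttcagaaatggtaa
Ptcra, chr17:46763663-46763962, minus strand: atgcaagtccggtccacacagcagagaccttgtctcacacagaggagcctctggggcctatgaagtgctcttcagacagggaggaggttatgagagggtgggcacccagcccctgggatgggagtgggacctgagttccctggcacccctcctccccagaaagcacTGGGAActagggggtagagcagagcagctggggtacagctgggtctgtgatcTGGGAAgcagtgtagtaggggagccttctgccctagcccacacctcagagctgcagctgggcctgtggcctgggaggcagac
The *Cd3d* window held 2 TCF and LEF motifs, at -73 and -54 bases from the start, beside 1 E protein and 1 ETS motif. The *Cd3g* window held 2 E protein motifs, 1 RBPJ and 1 Gata motif, and the *Cd3e* window 1 E protein, 1 RBPJ and 1 ETS motif. In the *Ptcra* window the RBPJ motif stood at -84 and -32 bases from the start. Such letters are common: CAGGTG was found in 22.4% of the 76 promoters of called rises, 10.0% of the 90 promoters of called falls and 20.2% of all 32851 promoters, and TGGGAA in 22.4%, 26.7% and 25.6%. For CTTTGA the shares were 18.4%, 16.7% and 16.0%, for AGATAA 7.89%, 5.56% and 11.2%, for TGTGGT 6.58%, 10.0% and 16.8%, and for GGAAGT 23.7%, 25.6% and 23.8%. The shares describe letters only, with promoters found for 59 of the 71 rises and 65 of the 81 falls.

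The list of pre-T cell receptor signalling had 18 measured genes, of which 7 were called higher and 1 lower, against 0.573% and 0.654% of all genes, and the median difference of the list was 1.38 log2. Besides the receptor chains, the called rises were *Trat1*, a transmembrane adaptor of the receptor (3.14 ± 0.56), the Tec family kinase gene *Txk* (2.84 ± 0.45) and the adaptor gene *Grap2* (1.62 ± 0.26). *Txk* was high in every DN2 array, with 3.87, 4.28 and 5.13 against 0.18, 2.39 and 2.19 in ETP. The called fall was that of the Src family kinase gene *Fyn*, at -0.98 ± 0.20 log2 (adjusted p = 0.0340, and 0.0946 with the block in 18 arrays). *Zap70*, the kinase that binds phosphorylated CD3 chains, differed by 0.50 ± 0.31 log2 without a call (adjusted p = 0.951), and in the next step, which uses the same DN2 arrays, it was 4.06 log2 higher in DN3 (adjusted p = 5.00e-06). The kinase gene *Lck* was not analysed here. Without DN2 replicate 1 or ETP replicate 3 the call of *Trat1* was lost (adjusted p = 0.0737 and 0.0683).

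*Slamf6* and *Ctla4*, receptors found on T cells, were called higher among 22 surface antigens of T lineage progenitors (0.573% of all genes were). *Ctla4* had 1.19, -1.30 and 0.65 in DN2 and -6.64, -3.49 and -4.17 in ETP (4.94 ± 0.75 log2 higher, adjusted p = 0.00461), and *Slamf6* was 2.34 ± 0.38 log2 higher (adjusted p = 0.00724). The median of the 22 antigens was -0.02 log2, the same as for all genes. *Thy1*, the CD90 antigen of T lineage cells, had 0.27, -0.27 and -0.56 in DN2 and -3.0, -1.99 and -3.70 in ETP. Its difference of 2.71 ± 0.68 log2 was not called (adjusted p = 0.107), but was with the block on the 9 fetal arrays (0.0294), in which *Ctla4* (0.0967) and *Slamf6* (0.0598) were not called. *Il7r*, the receptor of the cytokine that sustains early thymocytes, had 0.21, -0.54 and -0.07 in DN2 and -1.17, -1.36 and -0.73 in ETP. Its 0.95 ± 0.33 log2 was not called without a block (adjusted p = 0.466) and was with the block in 18 arrays (0.0205). Of 18 genes of interleukin-7 and common gamma chain signalling, only *Il2ra* was called, and their median was 0.02 log2.

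Among 20 measured transcription factors of the T lineage, 2 were called higher and none lower, against 0.573% and 0.654% of all genes, with a median of 0.26 log2. *Lef1*, a partner of beta-catenin that binds the same DNA sites as TCF-1, had 3.88, 1.51 and 2.41 in DN2 and -3.23, -1.51 and -2.26 in ETP, and was 4.93 ± 0.59 log2 higher (adjusted p = 0.000679). *Bcl11b*, required for commitment to the T lineage, had 0.70, -0.92 and -0.50 in DN2 and -2.61, -2.25 and -3.34 in ETP. Its difference was 2.49 ± 0.49 log2 (adjusted p = 0.0264). The call was lost without DN2 replicate 1 (0.112) or 3 (0.0716) or ETP replicate 1 (0.0878) or 3 (0.123). *Gata3*, which specifies T cells from the ETP onward, had 0.95, 0.50 and -0.00 in DN2 and 0.32, 0.13 and -0.71 in ETP, and the groups overlapped (0.57 ± 0.41 log2, adjusted p = 0.951). *Gfi1*, a repressor, differed by 0.77 ± 0.32 log2 (adjusted p = 0.759). *Tcf7* was not analysed here.

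*Rag2*, one of the pair of genes of the recombinase that cuts antigen receptor loci, had 1.33, 0.66 and 1.03 in DN2 and -0.66, -0.40 and -0.54 in ETP. It was 1.54 ± 0.32 log2 higher (adjusted p = 0.0334), a call lost when any array other than DN2 replicate 2 was left out (adjusted p between 0.0795 and 0.153). *Rag1* had 1.68, -0.09 and 0.93 in DN2 and -1.56, -0.84 and -0.44 in ETP. Its difference of 1.79 ± 0.43 log2 was not called (adjusted p = 0.0860), but was without DN2 replicate 2 (0.0159). *Dntt*, the polymerase that adds untemplated bases to the junctions, lay between -5.71 and -5.68 in DN2 and between -5.69 and -5.64 in ETP, in all of these arrays within 0.25 log2 of the lowest of the series. In the adult arrays *Dntt* lay between 6.72 and 7.16 in DN2 and between 5.58 and 6.39 in ETP. Of 11 genes of V(D)J recombination and end joining, *Rag2* was the 1 called higher (0.573% of all genes were) and the median was -0.03 log2.

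Of 19 Notch receptors, modifiers and targets, 0 were called in either direction by limma, 0 had an unadjusted p under 0.05 (5.06% of all probe sets did), and their median was -0.16 log2. The block on the 9 fetal arrays called 1 of them lower (*Notch2*). A one-way test between fetal DN2 and fetal ETP alone, unadjusted, called 1 higher. *Notch1* had 0.56, -0.49 and -0.72 in DN2 and -0.06, 0.06 and -0.34 in ETP, which overlap (-0.10 ± 0.55 log2, adjusted p = 0.994). *Hes1* had 0.49, 0.28 and 0.38 in DN2 against -0.19, -0.17 and -0.61 in ETP. *Dtx1* had 0.99, 0.18 and 0.75 against -0.41, -0.24 and -0.18. Both are targets of Notch, and their DN2 arrays lay above their ETP arrays, by 0.71 ± 0.42 and 0.92 ± 0.52 log2, within the spread that the 18 arrays give. *Notch3* differed by 0.14 ± 0.67 log2 and lay within 0.25 log2 of the lowest array in all 3 ETP arrays.

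**Figure D2:**
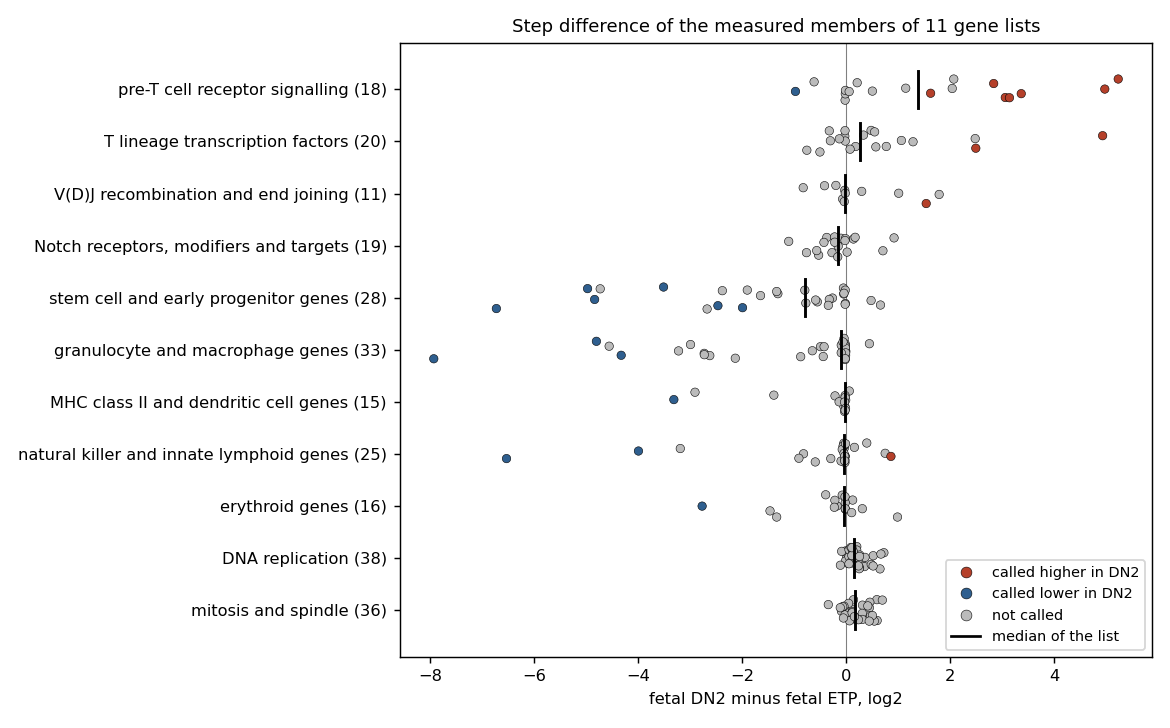
Difference between fetal DN2 and fetal ETP (log2, x axis) of each measured member of 11 gene lists; the number of members follows the name, bars are list medians and colours give calls over all probe sets. The pre-T cell receptor list has its median at 1.38 and the stem cell and early progenitor list at -0.79, and no member of the Notch, DNA replication and mitosis lists was called.

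Genes of blood progenitors were among the falls. Of 28 measured genes of stem cells and early progenitors, 6 were called lower (0.654% of all genes were) and none higher, 26 had a difference below 0, and the median was -0.79 log2. *Lmo2*, a bridging factor of stem cell transcription complexes, had -0.03, 0.03 and -0.08 in DN2 and 4.58, 4.75 and 5.53 in ETP (4.98 ± 0.23 log2 lower, adjusted p = 7.10e-08). *Mef2c* had -3.04, -2.64 and -0.25 in DN2 against 4.14, 4.17 and 5.96 in ETP, the second largest fall of all genes at -6.73 ± 1.22 log2 (adjusted p = 0.0154). All 5 of its probe sets were called. The adhesion molecule gene *Esam* fell by 4.84 ± 0.41 log2, the cytokine receptor gene *Flt3* by 3.52 ± 0.56, the basic helix-loop-helix gene *Tal1* by 2.47 ± 0.32 and *Mycn* by 2.0 ± 0.39. *Flt3* was tightly grouped, with -0.00, -0.05 and 0.01 in DN2 and 3.71, 3.27 and 3.52 in ETP. *Esam* had 0.02, 1.8 and 1.68 in DN2 and 6.12, 5.95 and 5.95 in ETP. The *Mef2c* call was lost without DN2 replicate 1 (adjusted p = 0.0784) or 2 (0.0677) or ETP replicate 3 (0.0763), and that of *Mycn*, called in 1 of its 3 probe sets, without DN2 replicate 1 (0.125) or 3 (0.0848), without ETP replicate 1 (0.110) or 3 (0.117) and with the block in 18 arrays (0.0514).

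Other progenitor genes had DN2 arrays below all ETP arrays without a call. *Hoxa9*, a homeobox gene of blood progenitors, had -4.48, -2.82 and -3.60 in DN2 and 1.04, 0.50 and 1.76 in ETP (-4.73 ± 1.32 log2, adjusted p = 0.188). *Cd34* had -0.28, 0.75 and 0.23 against 2.56, 2.65 and 2.64 (-2.38 ± 1.24, adjusted p = 0.951). *Meis1*, the partner of *Hoxa9*, had 0.08, -0.11 and 0.01 against 1.53, 1.06 and 1.33 (-1.32 ± 0.32, adjusted p = 0.0969). With the block on the 9 fetal arrays all of these were called (adjusted p = 0.0196, 0.0105 and 0.00401), and the list then counted 10 falls. *Hhex* (-1.65 ± 1.38), *Lyl1* (-0.27 ± 1.56) and *Spi1* (-1.90 ± 0.98), all regulators of early progenitors, were called in neither fit. *Spi1*, which encodes PU.1, had -0.14, 2.47 and -0.25 in DN2 and 3.17, 4.05 and 0.57 in ETP, and the groups overlapped.

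Genes of myeloid, dendritic and natural killer cells supplied several of the largest falls, although few members of each list were called. *Csf1r*, the receptor of macrophage colony-stimulating factor, had 0.01, -0.01 and -0.02 in DN2 and 7.5, 7.39 and 8.90 in ETP, the largest fall at -7.94 ± 0.34 log2 (adjusted p = 2.87e-08). All its DN2 arrays were within 0.25 log2 of the lowest of the series, and 2 of its 3 probe sets were called. Of 33 granulocyte and macrophage genes, 3 were called lower, against 0.654% of all genes, and the median was -0.10 log2. The others were *Prtn3*, a neutrophil protease (0.02, 3.97 and 0.56 in DN2 against 6.27, 7.01 and 5.70 in ETP, -4.81 ± 0.93), and *Fcgr3*, an antibody receptor (-0.17, -0.00 and 0.40 against 4.25, 5.26 and 3.71, -4.33 ± 0.57). *Mpo* had -3.18, 1.23 and -0.10 in DN2 and 3.85, 4.15 and 3.64 in ETP, without a call (adjusted p = 0.277). The neutrophil genes *S100a8* and *S100a9* and the sort antigen gene *Itgam* lay between -0.00 and 0.08 in all 6 arrays. The call of *Prtn3* (adjusted p = 0.0246) was lost without DN2 replicate 1 (0.113) or 3 (0.126) or ETP replicate 1 (0.0907) or 2 (0.0999). On the 9 fetal arrays *Prtn3* was called neither with the block (0.0586) nor without it (0.0991).

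*Klrd1*, the CD94 chain of natural killer receptors, had 0.00, -0.01 and -0.00 in DN2 and 7.63, 6.70 and 5.27 in ETP (-6.54 ± 0.41 log2, adjusted p = 1.07e-06). The chemokine gene *Ccl5* fell by 4.00 ± 0.66 (adjusted p = 0.00824, and 0.0502 without ETP replicate 1). *Zbtb16*, which encodes PLZF of innate-like lymphocytes, was the only called rise of the 25 natural killer and innate lymphoid genes, with 1.59, 1.47 and 1.53 in DN2 and 0.99, 0.17 and 0.86 in ETP (0.86 ± 0.14 log2, adjusted p = 0.00908). It was the smallest difference called, and without DN2 replicate 1 (0.83 log2) or ETP replicate 2 (0.61 log2) it was below 1.8-fold. The call was in 1 of its 2 probe sets and was lost on the 9 fetal arrays, with the block (0.0949) and without it (0.134). The median of the list was -0.04 log2. *Klrc1*, the partner chain of CD94, had 0.03, 0.02 and -0.00 in DN2 and 5.07, 3.95 and 0.61 in ETP without a call (adjusted p = 0.0748). *Id2*, needed for innate lymphoid cells, differed by -0.82 ± 0.26 log2 (adjusted p = 0.324). It was called without ETP replicate 3 (0.0287).

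Of 15 MHC class II and dendritic cell genes, only the integrin gene *Itgax* (CD11c) was called, and it was lower (0.654% of all genes were). It had -0.02, 0.00 and -0.02 in DN2 and 3.61, 3.46 and 2.85 in ETP (-3.32 ± 0.34 log2, adjusted p = 0.000148). The class II genes *H2-Aa* and *H2-Eb1* lay between -0.12 and 0.23 in all 6 arrays. *Hdc*, the histamine-forming enzyme of mast cells and basophils, had 0.01, 0.00 and -0.00 in DN2 and 5.91, 7.36 and 4.13 in ETP (-5.80 ± 0.96, adjusted p = 0.00824), in 1 of its 2 probe sets, the only call among 17 mast cell and megakaryocyte genes. *Ighm*, the immunoglobulin mu chain, was the only call among 17 B lineage genes, with -6.42, -6.45 and -6.46 in DN2 and -2.13, -2.0 and -2.26 in ETP (-4.32 ± 0.23, adjusted p = 2.23e-07). Only 2 of its 11 probe sets were called. The 11 ranged from -4.32 to 0.10 log2, and their mean of -0.63 log2 was less than a 1.8-fold difference. Among the B lineage genes *Pou2af1* went the other way, with the largest rise of the list (3.08 log2), without a call. On the 9 fetal arrays with the block, 1 of the 17 was called higher and 1 lower (0.629% and 1.21% of all genes). Whether a population of cells or the RNA in each cell changed cannot be told apart in such bulk samples. Averaged over the whole list, granulocyte and macrophage genes lay between -0.29 and 0.22 in DN2 and between 1.09 and 1.35 in ETP, and natural killer genes between 0.30 and 0.33 in DN2 and between 0.70 and 1.05 in ETP. The part of contaminating cells in these values was not tested.

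Of the 16 erythroid genes, *Hbb-y* and *Alas2* are given by replicate number, and how many others varied with it was not counted. *Hbb-y*, an embryonic globin, had 0.01, 4.53 and 2.85 in DN2 and 0.04, 3.96 and 4.58 in ETP, low in both arrays numbered 1. *Alas2*, the first enzyme of haem synthesis in red cells, was high only in the arrays numbered 3, with 0.02, 0.00 and 5.07 in DN2 and 0.03, 0.01 and 4.12 in ETP. Of 16 erythroid genes, 1 was called lower, against 0.654% of all genes. It was *Ermap*, a red cell adhesion protein, with 0.01, -0.00 and -0.00 in DN2 and 1.67, 2.5 and 4.16 in ETP (-2.77 ± 0.42, adjusted p = 0.00461). On the 9 fetal arrays *Ermap* was called neither with the block (0.0761) nor without it (0.0941). The mean over the erythroid list ranged from 0.08 to 0.60 in DN2 and from 0.21 to 1.24 in ETP. Genes of thymic epithelium, mesenchyme and endothelium, another possible admixture, had means between 0.08 and 0.11 in DN2 and between -0.03 and 0.06 in ETP. Of these 24, *Epcam*, which thymocytes also express, was called higher (3.52 ± 0.60, adjusted p = 0.00985), a call lost without DN2 replicate 1 (0.0545) or 3 (0.0574). On the 9 fetal arrays *Epcam* was called neither with the block (0.0673) nor without it (0.0723). DN2 replicate 2 was the lowest DN2 array in 53 of the 71 called rises, and ETP replicate 2 the highest ETP array in 45. In the 81 called falls, DN2 replicate 2 was the highest DN2 array in 36 and ETP replicate 2 the lowest ETP array in 32. The shares over all genes were not computed.

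**Figure D3:**
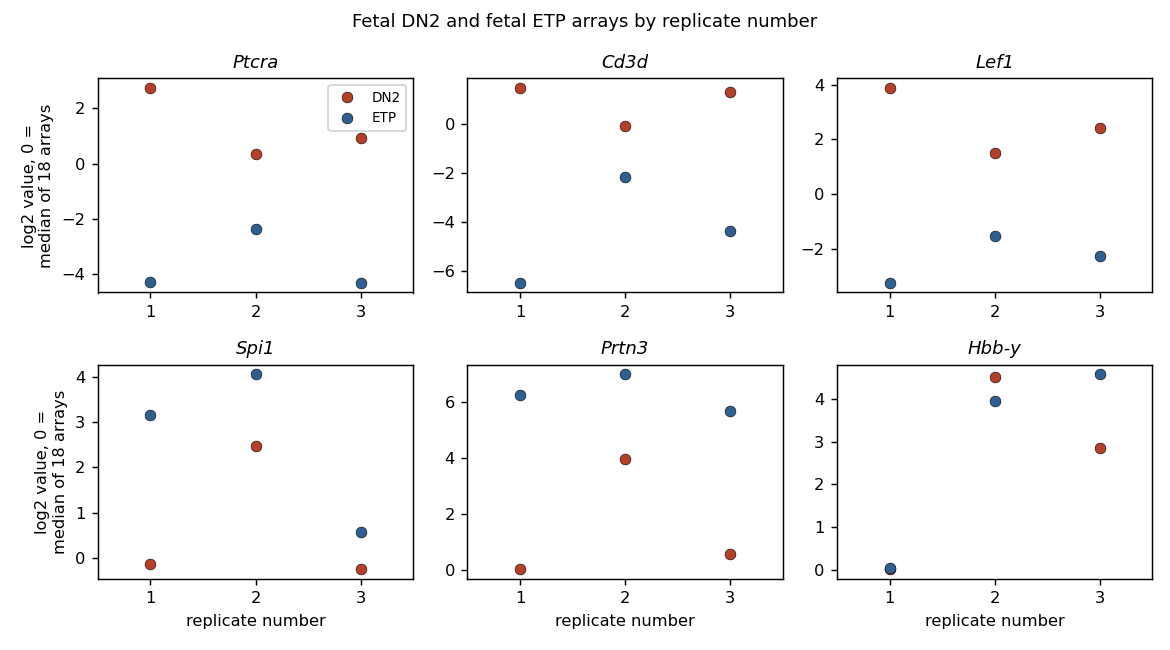
Log2 value (0 is the median of the 18 arrays) of the fetal DN2 and fetal ETP arrays by replicate number for *Ptcra*, *Cd3d*, *Lef1*, *Spi1*, *Prtn3* and *Hbb-y*. For *Ptcra*, *Cd3d* and *Lef1* the DN2 and ETP values are closest at replicate number 2, and *Hbb-y* is near 0 in both arrays numbered 1.

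Few cell cycle genes were called. *Ccnd1*, cyclin D1, had 0.00, 0.44 and 0.90 in DN2 and 6.99, 5.63 and 7.45 in ETP, a fall of -6.24 ± 0.35 log2 (adjusted p = 3.54e-07) in which all 3 of its probe sets were called. It was the only call among 21 genes of D cyclins, CDK inhibitors and E2F factors. Of 38 DNA replication genes and 36 genes of mitosis and spindle, limma called 0 and 0 in either direction, with medians of 0.15 and 0.16 log2. At an unadjusted p under 0.05, 2 replication genes were higher and 0 mitosis genes differed, against 5.06% of all probe sets in either direction. The block on the 9 fetal arrays and the one-way test, unadjusted, called 0 of both lists. In the adult step 16 and 18 of these were called higher, with medians of 0.91 and 1.28 log2, against 3.86% of all genes. The difference between the steps was called for 2 mitosis genes, *Nek2* and *Ccna2*, with the fetal step below the adult one, and for 0 replication genes (17 with the fetal step below at an unadjusted p under 0.05).

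Several large rises were in genes that belonged to none of these groups. *Nlrp6*, a sensor of the NOD-like receptor family, had 6.38, 4.57 and 5.59 in DN2 and 0.07, 1.66 and 0.21 in ETP (4.87 ± 0.42 log2 higher, adjusted p = 2.94e-05). *Plet1*, a surface glycoprotein gene, was 3.47, 3.40 and 3.16 in DN2 and 0.07, 0.02 and 0.05 in ETP, a difference of 3.30 ± 0.08 log2 with the smallest adjusted p among the rises named here (1.20e-10). *Pgam2*, the muscle phosphoglycerate mutase, was 4.74 ± 0.55 log2 higher and *Bcat1*, a branched-chain aminotransferase, 3.25 ± 0.40. *Ptpn13*, a tyrosine phosphatase, had 5.78, 4.53 and 5.15 in DN2 and 2.42, 1.46 and 0.05 in ETP (3.84 ± 0.47). *Nrp1*, a receptor for semaphorins, rose by 3.70 ± 0.54 log2 (3.55, 0.67 and 2.10 in DN2 against -1.70, -1.36 and -1.72 in ETP), *Tubb3* by 3.74 ± 0.48 and *Myzap* by 4.41 ± 0.44. *Pld4* (5.03 ± 1.00), *Endou* (4.42 ± 0.95), *Gbp8* (3.96 ± 0.78), *Morc1* (3.59 ± 0.76) and *Slc45a3* (3.26 ± 0.66) were called with adjusted p between 0.0264 and 0.0450. Each lost its call when 1 of at least 3 of the 6 arrays was left out (highest adjusted p = 0.153, 0.223, 0.120, 0.200 and 0.163). On the 9 fetal arrays *Nrp1*, *Pld4*, *Endou*, *Morc1* and *Slc45a3* were not called with the block (0.0559, 0.0838, 0.118, 0.158 and 0.172). Nor were they called there without it (0.0548, 0.0590, 0.182, 0.217 and 0.231). The block in 18 arrays ended the calls of *Pld4* (0.0869), *Endou* (0.0671), *Morc1* (0.0811) and *Slc45a3* (0.0707). Only 1 of 2 probe sets was called for *Plet1*, *Bcat1*, *Ptpn13* and *Slc45a3*, and 2 of 3 for *Nrp1*.

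Among the falls outside the lists, the plexin gene *Plxnc1* had 0.01, -0.01 and -0.05 in DN2 and 4.52, 4.27 and 4.30 in ETP (-4.38 ± 0.14 log2, adjusted p = 1.08e-09). The enzyme genes *Gcnt2* (-5.82 ± 0.37, in 1 of 7 probe sets), *B4galt6* (-3.63 ± 0.36) and *St3gal2* (-3.55 ± 0.56), which build glycans, were also lower. The carbonic anhydrase gene *Car2* fell by 5.94 ± 1.19, the anion transporter gene *Slco3a1* by 4.75 ± 0.65, the scaffold gene *Ahnak* by 4.04 ± 0.42, *Rgs1*, a brake on chemokine receptor signals, by 3.72 ± 0.67 and the tight junction gene *Tjp1* by 3.59 ± 0.47. Of 21 chemokine and homing receptors, 3 were called, in both directions, against 1.23% of all genes. Besides the rise of *Nrp1*, the chemokine receptor genes *Cxcr6* (0.08, 0.02 and 0.03 in DN2 against 3.38, 3.57 and 1.08 in ETP, -2.63 ± 0.45) and *Cxcr3* (-1.56 ± 0.32) were lower. The integrin gene *Itgae*, which binds epithelial cadherin, was 1.96 ± 0.40 log2 lower in DN2 and then 6.24 log2 higher in DN3 than in DN2. Calls were lost without single arrays for *Car2* (5 of 6 arrays, highest adjusted p = 0.135), *Rgs1* (4 of 6, 0.0822), *Cxcr6* (ETP replicate 1, 0.0587), *Cxcr3* (any array, 0.131) and *Itgae* (4 of 6, 0.174). On the 9 fetal arrays *Rgs1*, *Cxcr6*, *Cxcr3* and *Itgae* were not called with the block (0.0523, 0.114, 0.0539 and 0.0612). Nor were they called there without it (0.110, 0.143, 0.0889 and 0.144). The block in 18 arrays ended the call of *Cxcr3* (0.0511). Only 1 of 4 probe sets was called for *B4galt6* (mean of the 4, -1.02 log2) and for *Ahnak* (-1.03 log2), 1 of 2 for *Cxcr6*, 2 of 4 for *Plxnc1* and 2 of 3 for *St3gal2* and *Slco3a1*.

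Of genes of type I interferon responses (33 measured), glycolysis (18) and the Bcl2 family (15), limma called 0 in either direction, with medians between -0.04 and 0.01 log2. At an unadjusted p under 0.05 the counts were 1 higher and 4 lower, 0 and 0, and 0 and 2, against 5.06% of all probe sets in either direction. The block on the 9 fetal arrays called 0 of these genes. The one-way test, unadjusted, called 0 and 5, 0 and 0, and 1 and 2, against 201 and 363 of all probe sets. Among 30 genes of ribosome biogenesis and Myc the only call was *Mycn*. Of 14 fetal blood regulators, *Hmga2*, a chromatin protein of fetal progenitors, was lower, with 2.22, 1.76 and 1.65 in DN2 and 3.86, 3.43 and 3.76 in ETP (-1.81 ± 0.28 log2, adjusted p = 0.00528, in 1 of 3 probe sets). *Igf2* had the largest rise of that list (3.01 log2), without a call.

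The adult ETP to DN2 step, which shares no array with the fetal one, is the nearest comparison. There 670 probe sets were called higher (2.96%) and 704 lower (3.11%), together 6.07%, or 7.46% of genes, and the root mean square difference over all probe sets was 0.451 log2 in the fetal and 0.751 log2 in the adult step. Of the 71 fetal rises, 40 were also called higher in the adult step (3.86% of all genes were) and 0 lower. Of the 81 fetal falls, 61 were also called lower (3.61% of all genes) and 0 higher. Both steps were tested in the same fit, with a shared estimate of spread for each probe set. A gene with a small spread is therefore more readily called in both steps, and the calls are not independent. The shares of all genes do not allow for this. *Ptcra* was 4.97 ± 0.67 log2 higher in the fetal and 4.88 log2 higher in the adult step, *Klrd1* was lower by -6.54 and -6.18 log2, and *Ccnd1* by -6.24 and -6.46 log2. Whether a gene's fetal step differed from its adult step was tested directly. The difference was called for 180 probe sets (0.796%), 111 with the fetal step above the adult one and 69 with it below.

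**Figure D4:**
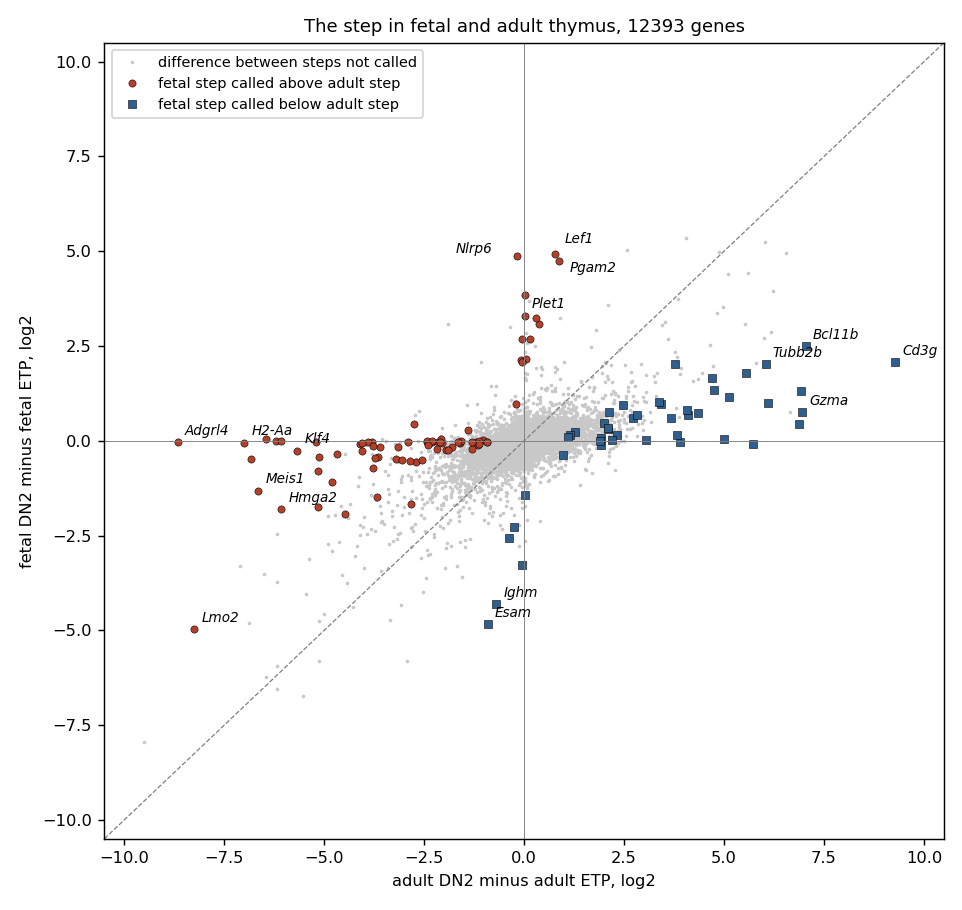
Difference between DN2 and ETP (log2) in the fetal thymus (y axis) against the adult thymus (x axis) for 12393 genes; the dashed line marks equal steps and filled symbols mark genes whose steps were called as different. The 77 genes called above the line lie mostly left of 0 near a fetal difference of 0, and the 45 called below it mostly right of 0.

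Of the 77 genes with the fetal step above, 58 were called lower in the adult and not called in the fetal step, and 13 were called higher in the fetal step. Of the 45 genes below, 36 were called higher in the adult and not in the fetal step, and 6 were called lower in the fetal step. *H2-Aa*, an MHC class II chain of antigen-presenting cells, lay between -0.12 and 0.02 in the 6 fetal DN2 and ETP arrays, whereas the adult arrays had -0.29, 1.88 and -0.00 in DN2 and 6.58, 8.51 and 7.52 in ETP. The steps differed by 6.96 ± 0.79 log2 (adjusted p = 0.000427). *Adgrl4*, an adhesion receptor gene, gave the largest difference (8.63 ± 0.22, adjusted p = 5.48e-11), with the 6 fetal DN2 and ETP arrays between -0.01 and 0.05 and the adult arrays at -0.08, 0.00 and -0.01 in DN2 and 9.12, 8.17 and 8.61 in ETP. *Meis1* was unlike these, since it lay between 1.06 and 1.53 in fetal ETP and between 0.49 and 1.25 in adult ETP, but between -0.11 and 0.08 in fetal DN2 and between -6.66 and -5.18 in adult DN2. *Lmo2* fell in both steps, with -4.98 log2 in the fetal and -8.25 log2 in the adult one (difference 3.28 ± 0.33, adjusted p = 0.000156), and *Hmga2* with -1.81 and -6.08 log2 (4.27 ± 0.40, adjusted p = 7.31e-05).

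The genes whose rise was larger in the fetal step included *Nlrp6*, whose adult arrays lay between -0.39 and -0.29 in DN2 and between -0.30 and -0.07 in ETP (difference between the steps 5.05 ± 0.59, adjusted p = 0.000583). *Lef1* had 3.88, 1.51 and 2.41 in fetal DN2, as given above, and -1.53, -2.80 and -3.18 in adult DN2, while fetal ETP lay between -3.23 and -1.51 and adult ETP between -3.36 and -3.22. Its steps differed by 4.15 ± 0.84 log2 (adjusted p = 0.0375). That call was lost with the block (0.0829), with array weights (0.0794) and without DN2 replicate 1 (0.0667) or 3 (0.0862) or ETP replicate 1 (0.0998) or 3 (0.0729). *Plet1* (3.29 ± 0.12, adjusted p = 2.14e-09), *Ptpn13* (3.83 ± 0.67, 0.0125) and *Pgam2* (3.88 ± 0.77, 0.0340) also rose more in the fetal step, *Pgam2* not with the block (0.0687) or without any array other than ETP replicate 2 (up to 0.0970) and *Ptpn13* not with array weights (0.126). On the mean of both probe sets the steps of *Plet1* differed by 1.63 log2 and those of *Ptpn13* by 1.90 log2. *Nrp1* rose in the fetal step, against 0.12 log2 in the adult one, but the difference was not called (adjusted p = 0.0535).

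Rises that were larger in the adult step included those of *Cd3g* and *Bcl11b*. The fetal step was called below the adult one for 1 of 18 pre-T cell receptor signalling genes. Among 20 T lineage transcription factors it was called below for 1 and above for 1, *Lef1*. For *Ptcra*, *Cd3d*, *Cd3e* and *Cd247* the difference between the steps was not called (adjusted p = 0.974, 0.838, 0.838 and 0.622). *Cd3g* was 9.29 log2 higher in adult DN2, and the steps differed by -7.22 ± 1.09 log2 (adjusted p = 0.00487). *Bcl11b* had 1.07, 1.07 and -0.46 in adult DN2 and -7.06, -6.35 and -6.03 in adult ETP, so that fetal DN2 and adult DN2 arrays overlapped and fetal ETP arrays lay above adult ETP arrays (difference between the steps -4.55 ± 0.69, adjusted p = 0.00499). The granzyme gene *Gzma* had 1.09, 0.97 and 1.01 in fetal DN2 and 0.11, 0.45 and 0.27 in fetal ETP, and -1.48, -2.32 and -1.93 in adult DN2 against -11.29, -7.51 and -7.81 in adult ETP (-6.21 ± 0.98, adjusted p = 0.00599). The tubulin gene *Tubb2b* was called in both steps (2.01 log2 fetal, 6.04 log2 adult) and differed by -4.02 ± 0.61 (adjusted p = 0.00499). Its fetal call was lost when any array other than DN2 replicate 2 was left out (adjusted p between 0.107 and 0.198). Genes with a larger fall in the fetal step included *Esam* (-4.84 fetal, -0.91 adult, difference -3.93 ± 0.59, adjusted p = 0.00451) and *Ighm* (-4.32 fetal, -0.70 adult, difference -3.62 ± 0.32, adjusted p = 4.34e-05). On the mean of all *Ighm* probe sets the steps differed by -0.51 log2, under the fold limit.

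**Figure D5:**
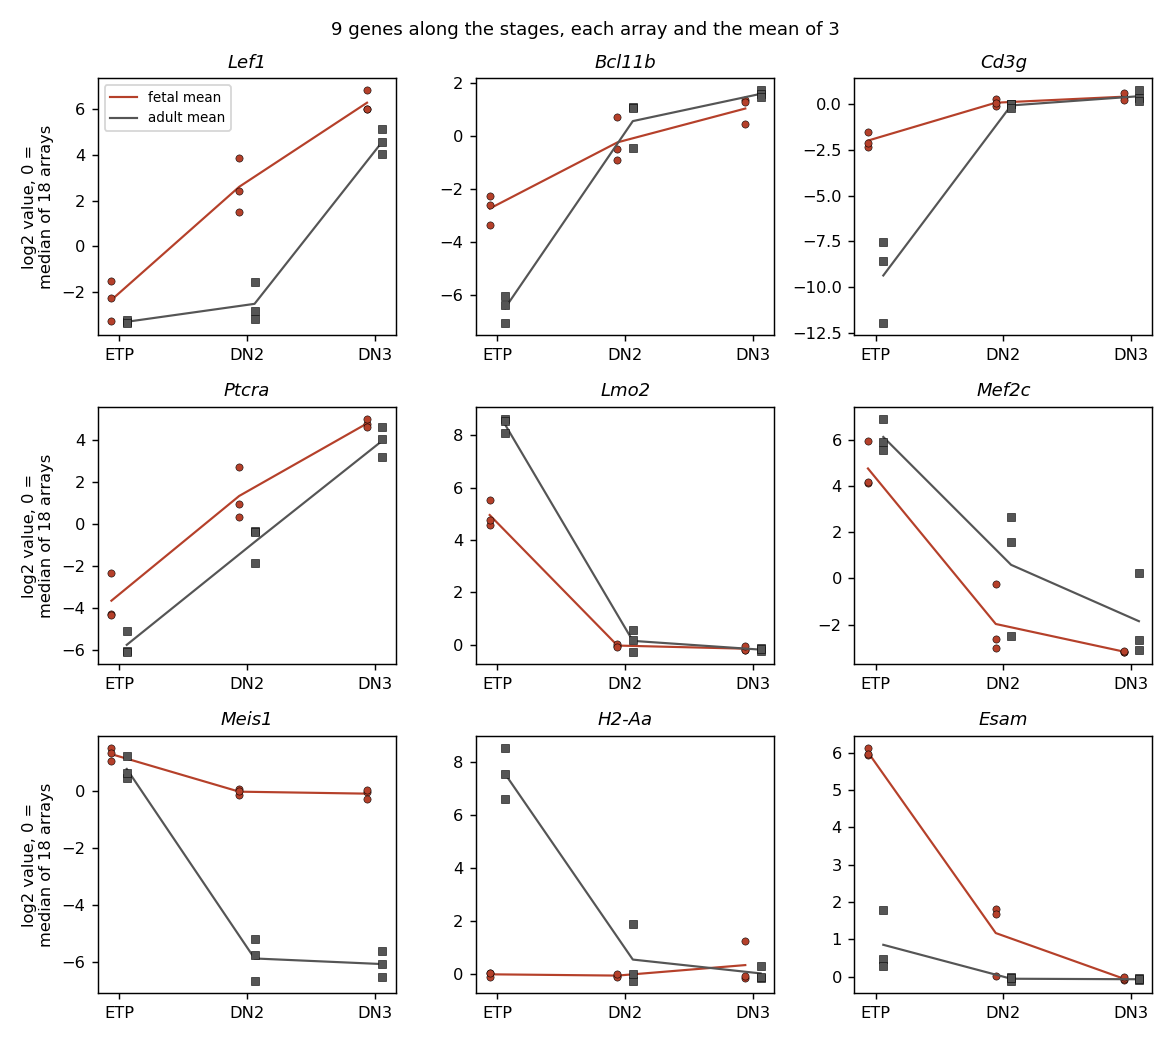
Log2 value (0 is the median of the 18 arrays) of 9 genes in ETP, DN2 and DN3 cells, each point 1 array and lines through the means of 3 arrays, fetal in red circles and adult in grey squares; y axes differ between panels. *Lef1* separates fetal from adult DN2 arrays, *Bcl11b* and *Cd3g* separate fetal from adult ETP arrays, and *H2-Aa* is raised in the adult ETP arrays.

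The next fetal step, from DN2 to DN3, shares the DN2 arrays, so its values are given side by side and no relation to the ETP to DN2 step was tested. In it 369 probe sets were higher (1.63%) and 190 lower (0.840%) in DN3, together 2.47%, or 1.97% and 0.992% of genes (2.96% in all). Of the 71 genes that rose from fetal ETP to DN2, 30 were called higher again in DN3 and 5 lower, and of the 81 that fell, 12 were called lower again and 6 higher. *Lef1* was higher by 4.93 and then 3.67 log2, *Ptcra* by 4.97 and 3.44 log2 and *Morc1* by 3.59 and 5.09 log2. *Il2ra* was 5.34 log2 higher in DN2 than in ETP, whereas DN3 and DN2 differed by -0.65 log2 without a call. *Zbtb16* was 0.86 log2 higher in DN2 than in ETP and lower in DN3 than in DN2 (-1.54 log2, adjusted p = 3.34e-05). *Lmo2* and *Csf1r*, with -4.98 and -7.94 log2 in the ETP to DN2 step, differed by -0.12 and 0.34 log2 without a call, with *Lmo2* between -0.21 and -0.04 in DN3. *Cd44* (-7.31 log2) and *Cd34* (-7.33 log2) were called lower in this next step.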

How the data were processed

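Cells were sorted in the study from fetal and adult C57BL/6 thymus, and each of 18 RNA samples was hybridised to an Affymetrix mouse expression array. The deposited values are log2 expression made by the authors with GC-RMA and then shifted to a median of 0 for each probe set, so they hold no levels. Each gene is represented by 1 probe set (those ending in neither _x_at nor _s_at first, then the largest SD over arrays), and 12377 of 12393 genes were found in RefSeq.

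Group means were fitted with limma 3.58.1 in R 4.3.3 (lmFit, eBayes without a trend, two-sided) on all 18 arrays, with Benjamini-Hochberg adjustment over 22626 probe sets. A call needs an adjusted p under 0.05 and at least 1.8-fold, the fold limit of the study's methods. With 3 arrays against 3, an exact permutation test cannot go below 0.10. Alternatives were fits on fewer arrays, the replicate number as a block, array weights, centred arrays and other fold limits. Others were a filter on span, gene means and the one-way test of the methods. Each of the 6 fetal DN2 and ETP arrays was also left out in turn. No adult array was left out singly, also not for the difference between the steps.

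Replicate numbers come from the sample titles. They were taken to pair the fetal samples because every same-numbered correlation was over 0.1.

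Genes were named by a rule: the 20 largest called rises and falls, up to 4 called members of each of 26 lists, the 10 largest differences between the steps in each direction, and a set of known thymocyte and progenitor genes. Members, lists and motifs were chosen with earlier results of these data known. *Txk*, *Grap2*, *Fyn*, *Klrc1*, *Alas2*, *S100a8*, *S100a9*, *Itgam*, *Notch2*, *Nek2*, *Ccna2*, *Pou2af1* and *Igf2* lie outside the rule and were chosen after their values were seen. Promoters are RefSeq sequences. The adult and DN3 arrays entered as comparisons only, and no cause of any difference was tested.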

Additional observations from a re-analysis of the deposited data

Results flagged for a closer look

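The 28 genes below are those named here whose fetal ETP to DN2 step differed from the adult step in the limma test of that difference (fetal step minus adult step, log2). Those with the fetal step below the adult one were *Cd3g* (-7.22), *Sytl2* (-6.43), *Gzma* (-6.21), *Ddc* (-5.80), *Esm1* (-5.62), *Khdc1a* (-5.10), *Atp1b1* (-4.94), *Bcl11b* (-4.55), *Tubb2b* (-4.02), *Ly6d* (-3.97), *Esam* (-3.93) and *Ighm* (-3.62). Those with it above were *Lmo2* (3.28), *Plet1* (3.29), *Ptpn13* (3.83), *Pgam2* (3.88), *Lef1* (4.15), *Hmga2* (4.27), *Nlrp6* (5.05), *Cd74* (5.18), *Meis1* (5.34), *Klf4* (5.41), *Plbd1* (6.08), *Mpeg1* (6.20), *Il1r1* (6.35), *H2-Eb1* (6.52), *H2-Aa* (6.96) and *Adgrl4* (8.63). The calls of *Esm1* (adjusted p = 0.0299, and up to 0.0884) and *Ly6d* (0.0368, and up to 0.110) were lost without single fetal arrays, any of the 6 for *Esm1* and 4 of the 6 for *Ly6d*. Array weights ended the calls of *Lef1* (0.0794), *Ptpn13* (0.126) and *Ly6d* (0.216), and the mean of all probe sets that of *Ighm* (-0.51 log2).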

How the results depend on the processing

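The 18-array fit called 94 probe sets higher and 126 lower in fetal DN2. Counts further than 1.5 times from these were 8 higher and 36 lower on the 6 arrays of the step. Others as far were 163 and 287 with array weights. In the one-way test of the 6 arrays they were 2 and 16 after adjustment and 201 and 363 without it. With the replicate block such counts were 0 and 0 on the 6 arrays, and 213 lower on the 9 fetal arrays, of which 98 were among the 126. Leaving out each of the 6 fetal DN2 and ETP arrays in turn gave 50 to 107 higher and 88 to 122 lower. Without DN2 replicate 1 or 3 or ETP replicate 1 or 3, the higher counts were also further than 1.5 times from 94. They were 54, 60, 50 and 62. No adult array was left out singly. No probe set was called in opposite directions in these fits. Of the 56 called genes among those named, the block in 18 arrays kept the call of 50. On the 9 fetal arrays 38 calls were kept with the block and 39 without it. The test of the difference between the steps, with 180 calls, gave 136 to 216 over its alternatives. Differences that changed sign were all uncalled: *Atp1b1* (-0.11) and *Hbb-y* (1.12) with array weights, *Mpeg1* (0.0083), *Plbd1* (0.0062), *Id3* (0.0020) and *Hba-x* (0.0012) with centred arrays, and *Dntt* (0.067) on the mean of its probe sets. Without single arrays the range was -0.33 to 0.12 for *Ddc*, -0.51 to 0.40 for *Atp1b1*, -0.019 to 0.10 for *H2-Eb1*, -0.13 to 0.093 for *Cd74*, -0.49 to 0.15 for *Notch1* and -1.81 to 0.83 for *Hbb-y*. The cause was not tested. A filter on intensity and a variance trend were not run because the values hold no levels, which also leaves signal over background unknown.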

Other observations

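Further genes whose fetal and adult steps differed had little difference between fetal DN2 and fetal ETP. *Klf4*, a zinc finger gene of myeloid and other cells, had 1.73, 1.02 and 1.78 in fetal DN2 and 2.02, 1.61 and 1.68 in fetal ETP, while adult DN2 had -4.14, -3.78 and -3.08 and adult ETP 3.31, 2.51 and 0.21. Its fetal DN2 arrays therefore lay above its adult DN2 arrays. *Ddc*, an amino acid decarboxylase gene, lay between -0.91 and -0.30 in fetal DN2 and between -0.95 and -0.07 in fetal ETP, against 0.59, 0.86 and 1.53 in adult DN2 and -4.98, -4.43 and -4.76 in adult ETP. *Ly6d*, a surface antigen of lymphoid progenitors, had -0.42, 1.21 and -0.44 in fetal DN2 and -0.40, -0.42 and -2.27 in fetal ETP, whereas adult DN2 had 4.91, 5.08 and 3.95 and adult ETP -0.43, -0.49 and -0.49. The macrophage gene *Mpeg1* lay between -0.01 and 0.02 in all fetal DN2 and ETP arrays, with 0.25, -0.00 and 2.24 in adult DN2 and 7.36, 7.70 and 6.06 in adult ETP.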
